A study of Homo sapiens with 6 samples.

Results

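The EGF receptor family and its ligands were followed in T24 cells, an established human bladder cancer cell line, after knockdown of UBC9, the enzyme that conjugates SUMO to its target proteins. The 10 genes were taken by symbol from the 58174 gene rows of each sample: the receptor genes EGFR, ERBB2 and ERBB3, and the ligand genes AREG, EREG, HBEGF, TGFA, BTC, EPGN and NRG1. Each gene had 1 row. RNA with poly(A) tails was sequenced from 3 samples with a control shRNA (shRNA-NC) and 3 samples with an shRNA against UBC9 (shRNA-UBC9). The shRNA against UBC9, of which a single hairpin sequence is given, was delivered as lentivirus from a pLKO.1 vector. The cells were selected with puromycin and cultured for weeks to obtain stable knockdown, so the values are not those of an acute response. The control shRNA was scrambled, and its vector is not given in the sources used here. The sources do not say whether the 3 samples of a group came from separate cultures, so the p-values measure the spread between these samples, which may be technical.

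Receptors of the EGF family are tyrosine kinases of the cell surface that pair when a ligand binds and pass the signal to the RAS-MAPK and PI3K-AKT pathways. ERBB2 has no known ligand of its own and acts as a partner, and ERBB3 has a weak kinase and signals through its partners. The ligands are made as membrane-bound precursors, from which proteases of the ADAM family release the soluble growth factor. AREG, TGFA and EPGN bind EGFR, while EREG, HBEGF and BTC bind EGFR and ERBB4, and NRG1 binds ERBB3 and ERBB4. In the urothelium, the lining of the bladder, this family is known for its part in regrowth after injury and in bladder cancer.

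The values are RPKM, in which a gene's reads are divided by its length and by the sample's depth. Levels can thus be set side by side between genes only roughly, since a single length per gene covers all its transcript forms. Because RPKM steps are worth 1 read, the totals and the reads behind each value could be read back from the files. The totals ran from 29847726 to 34635214 mapped reads in shRNA-NC and from 28219032 to 36058872 in shRNA-UBC9. The epithelial keratins KRT7, KRT8, KRT18 and KRT19 were at 19.3 RPKM or more in every sample, whereas CDH1, the epithelial cadherin, was at 0 in 5 of the 6 samples and the uroplakins UPK1A, UPK1B, UPK2 and UPK3A, proteins of differentiated urothelium, were at most at 0.125 RPKM. The urothelial transcription factors GATA3 and PPARG were expressed and fell, with log2 fold changes of -0.79 (adjusted p = 0.016) and -2.15 (adjusted p = 0.00169), and with the uroplakins they summed to between 22.9 and 30.1 RPKM in shRNA-NC and between 6.502 and 11.2 RPKM in shRNA-UBC9. The 6 epithelial markers together summed to between 938 and 1108 RPKM in shRNA-NC and to between 426 and 563 RPKM in shRNA-UBC9. The 4 keratins each fell at an adjusted p-value below 0.05 (limma), but EPCAM, another of these markers, did not fall. It was at 0.412, 0.986 and 0.575 RPKM in shRNA-NC and at 2.51, 1.27 and 0.732 RPKM in shRNA-UBC9. Its mean was higher in shRNA-UBC9, with overlapping groups (limma adjusted p = 0.0984). The summed levels of 5 leukocyte, 4 endothelial and 5 fibroblast markers were at most 0.979, 3.29 and 1.15 RPKM in any sample. The endothelial sum was lower in shRNA-UBC9, at no more than 1.08 RPKM, and the fibroblast sum was higher, at 0.652 to 1.15 RPKM against 0.307 to 0.566 RPKM. Most of the endothelial sum was CDH5, with a mean of 2.87 RPKM in shRNA-NC and 0.619 RPKM in shRNA-UBC9. PECAM1, VWF and CLDN5 were at most at 0.0879 RPKM in any sample. Most of the fibroblast sum was COL1A1, with means of 0.377 and 0.818 RPKM, and COL1A2, COL3A1, PDGFRA and DCN were at most at 0.0370 RPKM. The part of these shifts in the results was not tested, and in bulk RNA fewer cells with a transcript and less transcript per cell cannot be told apart.

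The ligand genes were higher in shRNA-UBC9, and no receptor gene rose. In all 7 ligand genes every shRNA-UBC9 sample was above every shRNA-NC sample, while in ERBB2 and ERBB3 every shRNA-UBC9 sample was below. Among the 12428 genes tested, 25.7% did not overlap in the first direction and 25.4% in the second. The family was chosen with earlier results of these data known, so an excess over the shares of all genes is not independent evidence. With limma on log2(RPKM + 0.1), 6 of the 7 ligand genes rose at an adjusted p-value below 0.05, against 18.8% of all tested genes, and each had a log2 fold change above 1, which 5.20% of the tested genes reached as up-regulated DEGs. Of these 6, BTC entered the test through its high group, since only 1 control reached the expression limit of 0.5 RPKM, and it did not pass in the fit without that limit (adjusted p = 0.0596). The seventh, EPGN, was below the limit. Of the 3 receptor genes only EGFR and ERBB2 were tested, because ERBB3 reached the limit in 2 samples. Neither fell at that threshold, against 18.0% of the tested genes, or was a down-regulated DEG, against 2.70%. ERBB3 fell in the fit without the limit (log2 fold change -1.24, adjusted p = 0.0175). For a single gene, exact permutation of 3 and 3 samples has 0.1 as its smallest two-sided p.

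**Figure D1:**
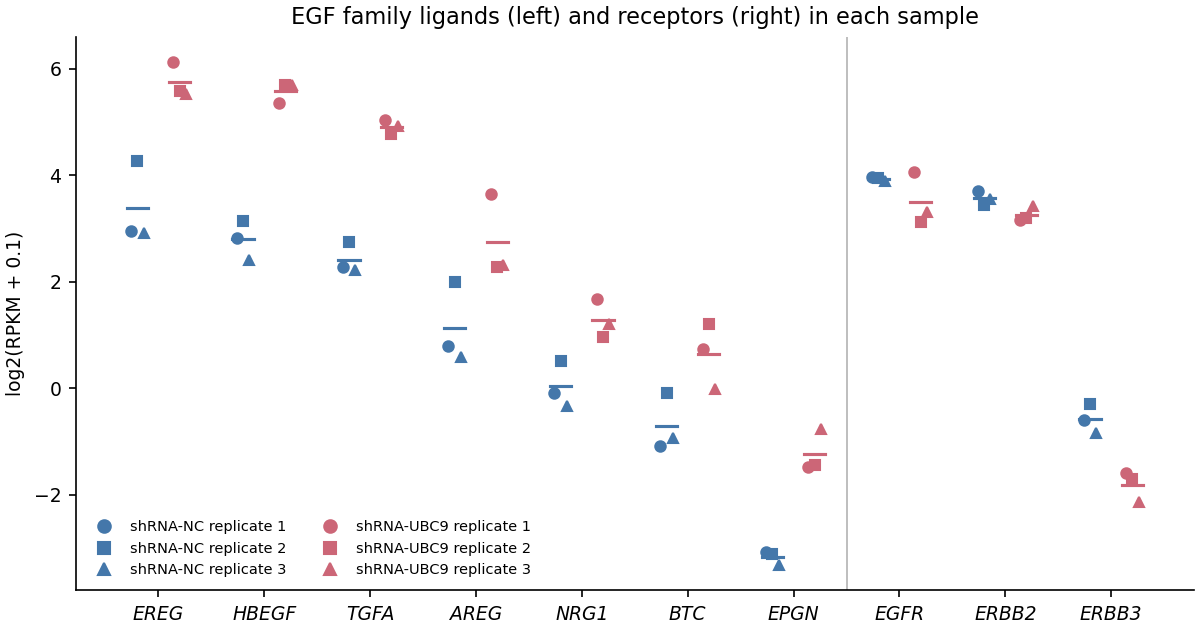
Level of each gene in each of the 6 samples, as log2(RPKM + 0.1), with shRNA-NC in blue, shRNA-UBC9 in red, the symbols marking replicates 1 to 3 and the lines the group means. The 7 ligand genes on the left separate with shRNA-UBC9 above, and EGFR on the right shows shRNA-UBC9 replicate 1 (16.7 RPKM) apart from replicates 2 (8.58 RPKM) and 3 (9.83 RPKM).

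EREG, AREG, EPGN and BTC are neighbours on chromosome 4, and the bases before the RefSeq starts of EREG, AREG and EPGN are shown because these starts share a TATA box. HBEGF and TGFA, the ligand genes with the largest tested rise, are shown beside them for comparison. Each sequence is the 150 bases before the RefSeq start in GRCh38.p14, 5′ to 3′ on the gene's strand, and capitals mark the motifs found. The RefSeq starts of EREG, AREG, EPGN and HBEGF are also their starts in the GENCODE annotation. For TGFA the starts differ. Its window lies inside the gene as GENCODE places it (chr2:70447284-70554193), downstream of the GENCODE start, so it may hold transcribed sequence. The windows are chr4:74364995-74365144 for EREG, chr4:74444986-74445135 for AREG and chr4:74308320-74308469 for EPGN, all on the plus strand, and chr5:140346604-140346753 for HBEGF and chr2:70553827-70553976 for TGFA, both on the minus strand.
EREG: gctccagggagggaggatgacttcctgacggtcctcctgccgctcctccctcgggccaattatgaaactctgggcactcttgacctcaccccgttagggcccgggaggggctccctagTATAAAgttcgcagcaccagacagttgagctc
AREG: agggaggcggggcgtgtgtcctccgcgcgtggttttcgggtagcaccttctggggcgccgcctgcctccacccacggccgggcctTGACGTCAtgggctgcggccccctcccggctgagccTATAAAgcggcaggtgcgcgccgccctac
EPGN: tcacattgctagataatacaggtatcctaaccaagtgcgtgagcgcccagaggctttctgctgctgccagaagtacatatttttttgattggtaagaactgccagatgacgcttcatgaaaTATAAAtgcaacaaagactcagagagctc
HBEGF: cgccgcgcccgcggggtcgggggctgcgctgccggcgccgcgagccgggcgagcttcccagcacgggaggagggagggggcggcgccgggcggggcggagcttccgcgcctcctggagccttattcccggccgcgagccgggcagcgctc
TGFA: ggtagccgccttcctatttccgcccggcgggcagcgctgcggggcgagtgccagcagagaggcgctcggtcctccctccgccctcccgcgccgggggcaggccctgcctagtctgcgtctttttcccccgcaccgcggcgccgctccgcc

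The 250 bases before the outermost RefSeq start were searched on both strands for 5 motifs in the 8 of the 10 genes that matched a promoter. The TATA box (TATAAA) was found in EREG, AREG and EPGN, beginning 32, 29 and 29 bases before the start, and in 11.4% of the windows of 24885 genes. AREG also held a cyclic AMP response element (TGACGTCA), 65 to 58 bases before the start, which 1.79% of the windows held. The AP-1 motif (TGANTCA) was found in ERBB2 and in 6.67% of the windows. Matches to the NF-kappaB motif were found in TGFA and BTC, and in 9.45% of the windows. The TGFA match began 219 bases before the RefSeq start, outside the stretch shown but inside the gene as GENCODE places it. None of the 8 genes held a CArG box, which 1.16% of the windows did. The motifs do not overlap each other in these windows, and a match of letters does not show that a factor binds.

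EREG, epiregulin, was the ligand gene with the highest mean in both groups. It was at 7.62, 19.2 and 7.42 RPKM in shRNA-NC replicates 1, 2 and 3, and at 70.0, 47.8 and 46.3 RPKM in shRNA-UBC9. The groups did not overlap, although shRNA-NC replicate 2 stood well above the other controls and shRNA-UBC9 replicate 1 above the other knockdown samples. The mean rose 4.79-fold, with a log2 fold change of 2.37 (SE 0.35, adjusted p = 0.00154 from limma). Between 1301 and 14438 reads lay behind each value, so counting error is small beside the spread between samples.

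AREG, amphiregulin, starts 80.0 kb from EREG and had a similar order of samples at a lower level. Its values were 1.63, 3.89 and 1.40 RPKM in shRNA-NC and 12.4, 4.77 and 4.86 RPKM in shRNA-UBC9. The highest control, replicate 2, lay just under the lowest knockdown sample. The log2 fold change was 1.62 (SE 0.45, adjusted p = 0.0229 from limma), and it was 1.46 (adjusted p = 0.0807) without shRNA-NC replicate 1 and 1.36 (adjusted p = 0.0809) without shRNA-NC replicate 3, where the high replicate 2 made up more of the control group. EREG exceeded AREG 4.69-, 4.95- and 5.30-fold in shRNA-NC and 5.63-, 10.02- and 9.53-fold in shRNA-UBC9, on the RPKM scale.

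HBEGF, the heparin-binding ligand that needs shedding to act at a distance, showed the largest fold change of the 8 tested genes. Its RPKM was 7.005, 8.75 and 5.24 in shRNA-NC replicates 1, 2 and 3 and 41.1, 51.5 and 51.6 in shRNA-UBC9. Here shRNA-UBC9 replicate 1 was the lowest of its group, unlike in EREG and AREG, and the groups lay far apart. The mean of 6.999 ± 1.76 RPKM in shRNA-NC compared with 48.1 ± 6.01 RPKM in shRNA-UBC9 (SD, n = 3), which is 6.87-fold higher. The log2 fold change was 2.79 (SE 0.18, limma adjusted p = 3.9e-05).

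TGFA, transforming growth factor alpha, had the lowest adjusted p-value of the ligand genes. It was at 4.73, 6.64 and 4.55 RPKM in shRNA-NC and at 33.0, 27.2 and 30.4 RPKM in shRNA-UBC9. Every knockdown sample exceeded the highest control severalfold. The log2 fold change was 2.50 (SE 0.15, adjusted p = 2.6e-05 from limma), and it stayed between 2.40 and 2.67 when any 1 sample was left out.

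BTC, betacellulin, and NRG1, neuregulin 1, rose from low levels. BTC was at 0.369, 0.841 and 0.420 RPKM in shRNA-NC and at 1.57, 2.22 and 0.893 RPKM in shRNA-UBC9, with 31 to 220 reads behind each value. The groups met closely, since control replicate 2 lay just below knockdown replicate 3, and 1 control reached 0.5 RPKM. Its log2 fold change of 1.35 (SE 0.36, adjusted p = 0.0198 from limma) lost the threshold without shRNA-NC replicate 1 (adjusted p = 0.0708), shRNA-NC replicate 3 (adjusted p = 0.0681) or shRNA-UBC9 replicate 2 (adjusted p = 0.0663). NRG1 was at 0.846, 1.33 and 0.697 RPKM in shRNA-NC and at 3.10, 1.84 and 2.20 RPKM in shRNA-UBC9. Its groups did not overlap, and the log2 fold change was 1.24 (SE 0.25, adjusted p = 0.00666). With a pseudocount of 1 RPKM the log2 fold changes fell to 0.71 for BTC and 0.78 for NRG1, below the DEG limit of 1.

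EPGN, epigen, was almost absent from the controls. Its RPKM was 0.0185, 0.0159 and 0 in shRNA-NC, which is 1, 1 and 0 reads, and 0.260, 0.266 and 0.488 in shRNA-UBC9, which is 17, 17 and 25 reads. Over the groups this was 59 against 2 reads, a ratio of 29.1 per mapped read with a 95% exact interval from 7.72 to 246 that covers counting error only. It reached the expression limit in no sample and was not in the test. In the fit without the limit its log2 fold change was 1.94 (SE 0.23, adjusted p = 0.00366 from limma), a value that depends on the pseudocount.

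**Figure D2:**
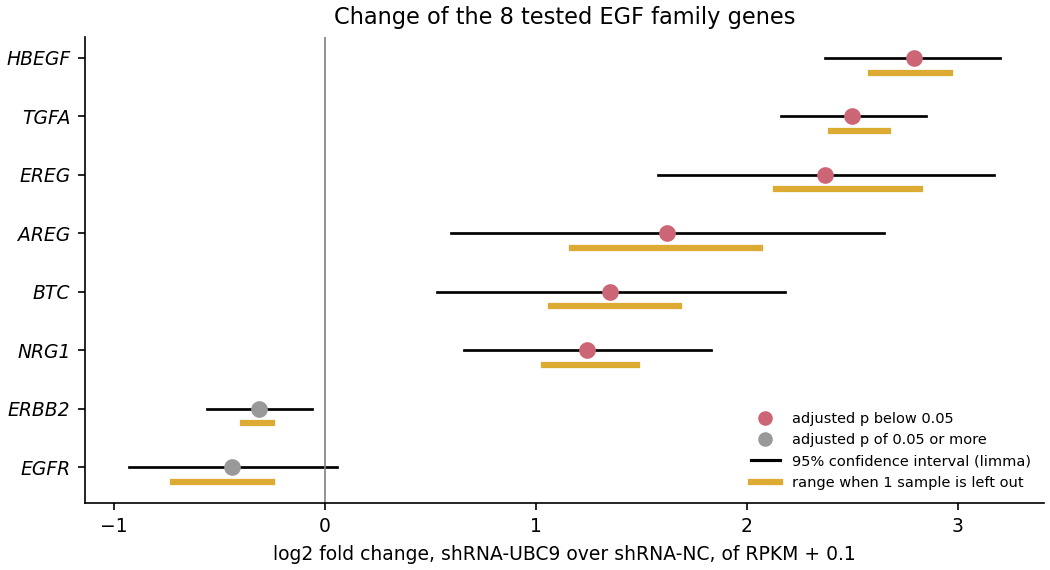
Log2 fold change of RPKM + 0.1 for the 8 tested genes with the 95% confidence interval from limma (black) and the range when any 1 of the 6 samples is left out (yellow); red points passed an adjusted p-value of 0.05. The 6 ligand genes lie between 1.24 (NRG1) and 2.79 (HBEGF), and ERBB2 and EGFR lie at -0.31 and -0.44, in grey.

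Among the receptors, EGFR showed no difference beyond the spread between samples. It was at 15.5, 15.4 and 14.8 RPKM in shRNA-NC and at 16.7, 8.58 and 9.83 RPKM in shRNA-UBC9. The controls agreed closely, knockdown replicate 1 lay above all of them, and replicates 2 and 3 lay well below. The log2 fold change was -0.44 (95% CI -0.93 to 0.06, adjusted p = 0.147 from limma). Without shRNA-UBC9 replicate 1 it was -0.72 (adjusted p = 0.00122), so the outcome for EGFR turned on that library. Without shRNA-UBC9 replicate 2 it was -0.25 (adjusted p = 0.398). The antisense gene EGFR-AS1, which overlaps exons of EGFR, was at most at 0.109 RPKM.

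ERBB2 was at 13.0, 10.8 and 11.7 RPKM in shRNA-NC and at 8.82, 9.13 and 10.6 RPKM in shRNA-UBC9. Its groups did not overlap, but the lowest control and the highest knockdown sample nearly touched. The log2 fold change was -0.31 (95% CI -0.56 to -0.06, adjusted p = 0.0521 from limma), so it narrowly missed the threshold. The interval is not adjusted for the number of genes tested. Exons of ERBB2 overlap those of MIEN1 and PGAP3 on the other strand, and whether reads were counted by strand is not given in the sources used here. MIEN1 was at 20.5 to 23.3 RPKM in shRNA-NC and at 21.8 to 26.2 RPKM in shRNA-UBC9, with a log2 fold change of 0.17 (adjusted p = 0.219).

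ERBB3 was lower still and its groups were well apart. It was at 0.561, 0.717 and 0.457 RPKM in shRNA-NC and at 0.231, 0.207 and 0.127 RPKM in shRNA-UBC9, and 494 against 166 reads lay behind the groups. Only 2 samples, both controls, reached 0.5 RPKM, so ERBB3 was not in the test. In the fit without the expression limit its log2 fold change was -1.24 (SE 0.25, adjusted p = 0.0175 from limma).

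The other genes of the family were at low levels. ERBB4, the remaining receptor, was at no more than 0.050 RPKM in any sample, with 3 to 22 reads, and its groups overlapped. EGF was at 0.00547, 0.0377 and 0.0434 RPKM in shRNA-NC and at 0.181, 0.245 and 0.150 RPKM in shRNA-UBC9. These values are 18 reads against 119, a ratio of 6.53 per mapped read with a 95% exact interval from 3.96 to 11.4 for counting error. NRG2 was at 1.51 to 1.61 RPKM in shRNA-NC and at 1.15 to 1.31 RPKM in shRNA-UBC9, without overlap, and its log2 fold change was -0.32 (limma adjusted p = 0.0714). NRG3 was listed at 0 in all samples, and NRG4 was at 0.0574 to 0.120 RPKM with overlapping groups.

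The order of the levels differed between the groups. In shRNA-NC EGFR was highest, at 15.2 ± 0.38 RPKM (SD, n = 3), followed by ERBB2 at 11.8 ± 1.08, EREG at 11.4 ± 6.77, HBEGF at 6.999 ± 1.76 and TGFA at 5.31 ± 1.16 RPKM. The ranges of neighbours in this order overlapped, except between EGFR and ERBB2, and AREG at 2.30 ± 1.38 RPKM lay below the range of TGFA. NRG1 at 0.957 ± 0.330 RPKM lay below AREG and overlapped ERBB3 at 0.578 ± 0.131, which overlapped BTC at 0.543 ± 0.259 RPKM. In shRNA-UBC9 the order began with EREG at 54.7 ± 13.3 and HBEGF at 48.1 ± 6.01 RPKM, whose ranges overlapped, then TGFA at 30.2 ± 2.86 RPKM. EGFR at 11.7 ± 4.36, ERBB2 at 9.53 ± 0.971 and AREG at 7.36 ± 4.40 RPKM followed, each overlapping its neighbour in the order and all below TGFA. NRG1 at 2.38 ± 0.648 and BTC at 1.56 ± 0.662 RPKM overlapped each other below AREG, and EPGN and ERBB3 were lowest.

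Summed over the 7 ligand genes, RPKM was 22.2, 40.7 and 19.7 in shRNA-NC and 161, 136 and 137 in shRNA-UBC9. The sum over the 3 receptor genes was 29.0, 26.9 and 27.0 in shRNA-NC and 25.7, 17.9 and 20.6 in shRNA-UBC9. The ratio of the ligand sum to the receptor sum was 0.766, 1.51 and 0.731 in the controls and 6.28, 7.57 and 6.64 in the knockdown samples. It is a ratio of RPKM and does not count transcripts, since a single length per gene covers all its transcript forms. EREG, HBEGF and TGFA together made up 85.1% to 87.2% of the ligand sum in shRNA-NC and 89.2% to 93.8% in shRNA-UBC9. The share of AREG was 7.32%, 9.55% and 7.09% in the controls, close to the 7.70% of shRNA-UBC9 replicate 1, and 3.52% and 3.55% in replicates 2 and 3. The ratio of EGFR to ERBB2 was 1.19, 1.42 and 1.26 in shRNA-NC and 1.89, 0.940 and 0.925 in shRNA-UBC9, with knockdown replicate 1 again apart.

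**Figure D3:**
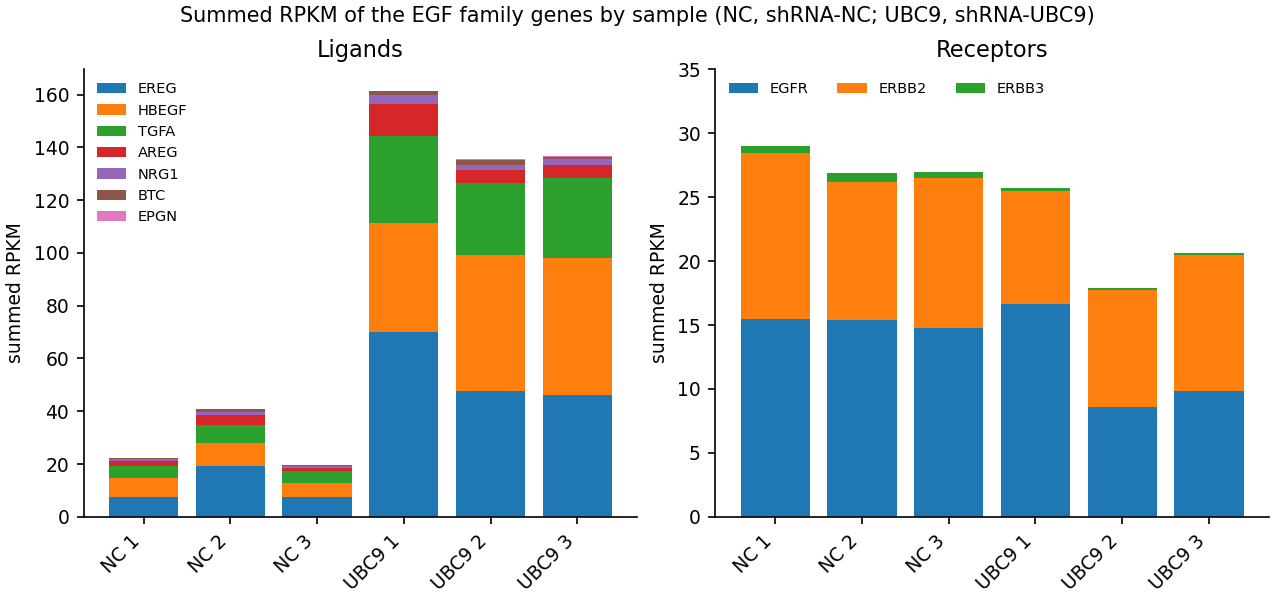
Summed RPKM of the 7 ligand genes (left) and the 3 receptor genes (right) in each sample, with a colour for each gene; both axes start at 0 and differ in scale. The ligand bars reach 161, 136 and 137 RPKM in shRNA-UBC9 against at most 40.7 RPKM in shRNA-NC, and the receptor bars of shRNA-UBC9 replicates 2 and 3 are the lowest at 17.9 and 20.6 RPKM.

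HBEGF is at chr5:140332843-140346603 and TGFA at chr2:70447284-70554193, both on the minus strand of GRCh38. The receptor genes EGFR at chr7:55019017-55211628, ERBB2 at chr17:39687914-39730426 and ERBB3 at chr12:56076799-56103505 are on the plus strand. The 4 neighbouring ligand genes lie next to the CXC chemokine genes. On GRCh38 with the GENCODE 44 annotation EPGN is at chr4:74308470-74316789, EREG at chr4:74365145-74388749 and AREG at chr4:74445136-74455005 on the plus strand, and BTC is at chr4:74744759-74794523 on the minus strand. Of the other protein-coding genes with a row that start within 500 kb of these genes, the chemokine genes CXCL6, CXCL1, CXCL5, CXCL3 and CXCL2 rose, with log2 fold changes from 2.03 for CXCL6 to 5.46 for CXCL3. Their highest adjusted p-value was 0.015 (limma). MTHFD2L, a mitochondrial folate enzyme whose gene lies between the chemokine genes and EPGN, was at 0.792 to 0.879 RPKM in shRNA-NC and had a log2 fold change of 0.05 (95% CI -0.30 to 0.39, adjusted p = 0.83). PF4V1, PF4 and PPBP were listed at 0 in every sample, and PARM1, beyond BTC, was at most at 0.0551 RPKM.

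**Figure D4:**
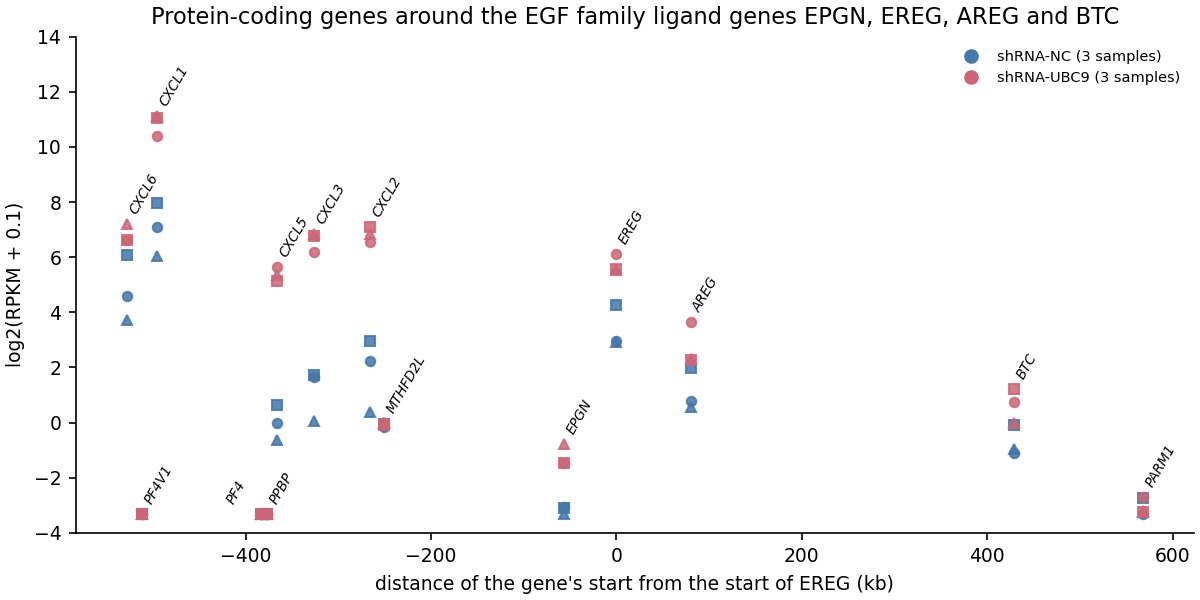
Level of the protein-coding genes around the 4 neighbouring ligand genes, as log2(RPKM + 0.1), against the distance of each gene's start from that of EREG in kb; blue marks shRNA-NC, red shRNA-UBC9 and the symbols replicates 1 to 3. The 5 chemokine genes on the left and all 4 ligand genes have shRNA-UBC9 above shRNA-NC, and the groups of MTHFD2L between them overlap, with a log2 fold change of 0.05.

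Genes that act around the receptors were grouped into 7 lists with 85 genes, of which 81 were tested. Of these, 19 rose, 15 fell and 47 did not pass an adjusted p-value of 0.05 (limma), beside 18.8% and 18.0% of all tested genes. The median log2 fold change was 0.06, beside 0.00 over all tested genes. The lists were unlike: the early response list, with 12 genes tested, held 10 of the 19 that rose and none of those that fell.

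Among 11 genes of ligand shedding and its control, 2 rose and 4 fell, beside 18.8% and 18.0% of all tested genes. Their median log2 fold change was 0.02. Without shRNA-UBC9 replicate 2 only 2 fell, and without shRNA-NC replicate 2 or shRNA-UBC9 replicate 1 there were 3 that rose. TIMP3, an inhibitor of ADAM17 and other metalloproteinases, was at 8.01, 6.29 and 8.99 RPKM in shRNA-NC and at 1.54, 0.814 and 0.885 RPKM in shRNA-UBC9. All knockdown samples lay far below the controls, and the log2 fold change was -2.77 (SE 0.23, adjusted p = 0.00012 from limma). ADAM17, the main sheddase of AREG, EREG, HBEGF and TGFA, was at 8.80 ± 1.08 RPKM in shRNA-NC and at 6.58 ± 1.01 RPKM in shRNA-UBC9 (SD, n = 3), and it fell with a log2 fold change of -0.42 (limma adjusted p = 0.0423). ADAM9 and ADAM15 fell as well, by 0.68 and 0.42 on the log2 scale. ADAM10, the main sheddase of BTC, had a log2 fold change of 0.02 (adjusted p = 0.877). RHBDF1, which carries ADAM17 to the cell surface, and ADAM12 rose by 0.76 and 0.59 on the log2 scale. Apart from TIMP3, the genes of this paragraph were chosen after their values were seen.

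Beside the counts of this paragraph, 18.8% of all tested genes rose and 18.0% fell. Of 12 tested receptor adaptors 1 rose and 4 fell. The lowest adjusted p-value was that of GAB1, a docking protein, which fell from 1.48 ± 0.0543 to 0.738 ± 0.0635 RPKM (log2 fold change -0.91, adjusted p = 0.00198 from limma). Of 13 genes of the RAS-MAPK core 2 rose and 1 fell, and only 1 rose in each fit that left out 1 sample other than shRNA-NC replicate 1. NRAS was at 28.0, 29.4 and 28.7 RPKM in shRNA-NC and at 13.3, 13.4 and 14.8 RPKM in shRNA-UBC9. It fell in every knockdown sample (log2 fold change -1.05, SE 0.08, limma adjusted p = 9.5e-05). Of 11 genes of the PI3K-AKT core 2 rose and 1 fell, and PIK3CB, a catalytic subunit of PI3K, had the lowest adjusted p-value with a log2 fold change of 0.53 (adjusted p = 0.00275). Of 10 receptor trafficking genes 2 rose and none fell at this threshold, led by RAB7A, a GTPase of late endosomes, with a log2 fold change of 0.52 (adjusted p = 0.00225).

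Of 12 tested inhibitors of the receptors, none rose and 5 fell, beside 18.8% and 18.0% of all tested genes, with a median log2 fold change of -0.21. SOCS5, a suppressor that promotes degradation of EGFR, had the lowest adjusted p-value, at 7.57, 8.59 and 8.90 RPKM in shRNA-NC and 4.53, 4.36 and 4.31 RPKM in shRNA-UBC9 (log2 fold change -0.91, SE 0.09, adjusted p = 0.00034 from limma). ERRFI1, a feedback inhibitor that blocks the EGFR kinase, was at 29.6, 30.5 and 36.7 RPKM in shRNA-NC and at 226, 52.1 and 49.2 RPKM in shRNA-UBC9. Its groups did not overlap, but shRNA-UBC9 replicate 1 stood far above the others, and the log2 fold change was 1.37 (SE 0.51, adjusted p = 0.0657). Without that library it was 0.66 (adjusted p = 0.00372), and without shRNA-UBC9 replicate 2 or 3 it was 1.71 (adjusted p = 0.0464) or 1.75 (adjusted p = 0.0287). ERRFI1 was named after its values were seen.

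Of 14 listed early response genes, which EGF is known to induce, 12 were tested and EGR2 and EGR3 were below the limit. Of the 12, 10 rose, beside 18.8% of all tested genes, and ATF3 and KLF6 did not pass the threshold, with a median log2 fold change of 1.04. The list was chosen with earlier results of these data known, so its excess over that share is not independent evidence. The genes called as up-regulated DEGs, beside 5.20% of all tested genes, were EGR1, FOS, FOSB, JUNB, IER3 and PHLDA1. FOS and FOSB entered the test through shRNA-UBC9, since none and 1 of their controls reached 0.5 RPKM. EGR1, a zinc finger transcription factor, was at 1.10, 2.27 and 1.02 RPKM in shRNA-NC and at 51.3, 17.8 and 15.9 RPKM in shRNA-UBC9. The groups lay far apart (log2 fold change 4.06, SE 0.45, limma adjusted p = 0.00046). Like EREG and AREG, EGR1 was highest in replicate 2 of the controls and in replicate 1 of the knockdown samples. It was set beside them after its values were seen. Of the 12 tested early response genes, 3 were highest in shRNA-NC replicate 2 and 7 in shRNA-NC replicate 1, and 10 were highest in shRNA-UBC9 replicate 1. IER3, an early gene linked to survival, was at 52.6, 60.6 and 49.0 RPKM in shRNA-NC and at 274, 226 and 189 RPKM in shRNA-UBC9. It rose without overlap (log2 fold change 2.08, limma adjusted p = 5.3e-05). The log2 fold changes of FOS, JUNB, FOSB and PHLDA1 were 1.94, 1.66, 1.34 and 1.12. Many agents besides EGF induce these genes, and without any 1 of the 6 samples 10 or 11 of the 12 rose.

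**Figure D5:**
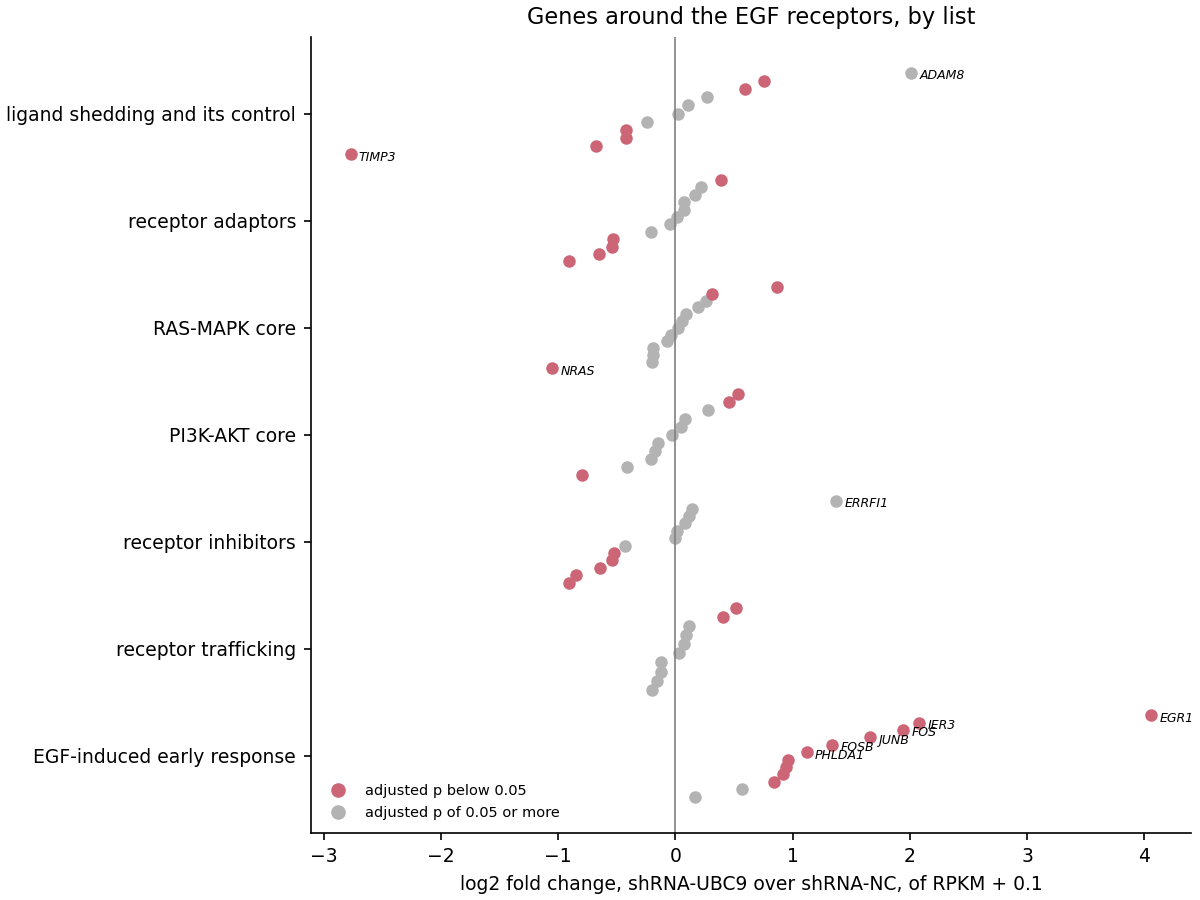
Log2 fold change of RPKM + 0.1 for the 81 tested genes of the 7 lists around the receptors, 1 row per list, with red for an adjusted p-value below 0.05 and names for changes beyond 1 in either direction. The early response list lies wholly to the right of 0, with EGR1 at 4.06, and in the other lists most points lie near 0 apart from TIMP3 at -2.77 and NRAS at -1.05, which passed, and ADAM8 at 2.01 and ERRFI1 at 1.37, which did not.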

How the data were processed

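Poly(A) RNA of T24 cells was sequenced from 3 shRNA-NC and 3 shRNA-UBC9 samples, with groups and replicate numbers read from the sample titles. The authors trimmed adaptors, used the CLC Biomedical Genomics Workbench to map reads to GRCh38 (hg38 in the submitters' processing notes), and deposited 1 RPKM value per gene and sample. The annotation release, strand setting and treatment of reads with several matches are not given in the sources used here. RPKM does not correct for differences in RNA composition.

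Since RPKM is no count, the log2(RPKM + 0.1) values of the 12428 genes with at least 0.5 RPKM in at least 3 samples were fitted with limma 3.58.1 in R 4.3.3 (lmFit, eBayes with intensity trend), and p-values were adjusted over all these genes by the Benjamini-Hochberg method. A DEG had an adjusted p-value below 0.05 and an absolute log2 fold change above 1. Fold changes are on this scale, which understates low genes. No set test was run. Some values are not reported here.

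The total of mapped reads of a sample was solved from genes of known exon length (GENCODE 44), and each gene's reads with the smallest length that made all 6 values whole within 0.0001 reads. This held for 100% of the tested genes. The smallest length can be a fraction of the true one, so reads are lower limits. A read pair may count as 1 read. Intervals cover counting error only. For the ratios of EPGN and EGF the interval is the exact (Clopper-Pearson) binomial interval of the split of reads, scaled by the totals.

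Named were all 10 genes, the other family genes, neighbours that start within 500 kb of EPGN, EREG, AREG or BTC, and in each list around the receptors the DEGs and the gene with the lowest adjusted p-value. Promoter windows came from RefSeq (GRCh38.p14), with ERBB3 and NRG1 unmatched. The genes and lists were chosen with earlier results of these data known. Alternatives were other pseudocounts, filters, scalings, no trend, a replicate block, leaving out each sample, an unadjusted p-value and, added after seeing the data, limma-voom on the recovered reads. The scripts were tested on simulated data. Python 3.11.15, numpy 2.4.6, pandas 2.3.3, scipy 1.17.1 and matplotlib 3.10.9 were used elsewhere.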

Additional observations from a re-analysis of the deposited data

How the results depend on the processing

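Under the 15 alternatives to the fit (14 for BTC, which the limit of 1 RPKM removes), no tested gene of the family changed direction, and EREG, HBEGF, TGFA and NRG1 rose at an adjusted p-value below 0.05 in each. AREG did not pass without the expression limit (adjusted p = 0.0677), nor did BTC (adjusted p = 0.0596). Over the alternatives the adjusted p-value ranged from 0.00955 to 0.0809 for AREG, from 0.00632 to 0.0708 for BTC, from 0.0316 to 0.155 for ERBB2 and from 0.00122 to 0.398 for EGFR (limma). ERBB2 passed in 6 alternatives, among them median scaling (-0.35, adjusted p = 0.0417), quantile normalization (-0.35, adjusted p = 0.0366) and limma-voom on recovered reads (-0.31, adjusted p = 0.0435). Leaving out 1 sample gave between 4 and 7 genes of the family that passed and between 4 and 6 DEGs, and the lowest counts came without shRNA-NC replicate 1 or 3. With a pseudocount of 1 RPKM there were 4 DEGs in the family, and 552 over all genes against 981. Without shRNA-NC replicate 3, 3034 genes passed the adjusted p-value against 4576. The replicate numbers did not pair the samples (correlations of deviations from the group means of -0.367, 0.073 and -0.170 for numbers 1, 2 and 3). Between samples of unlike number the correlation ran from -0.318 for shRNA-NC 2 with shRNA-UBC9 3 to 0.526 for shRNA-NC 1 with shRNA-UBC9 3. It was 0.225 for shRNA-NC 2 with shRNA-UBC9 1. A block by number does not model such pairs. With the number as a replicate block 6 genes of the family and 30 genes of the lists passed, against 6 and 34. In the list counts, RAS-MAPK genes that rose went from 2 to 1 under quantile normalization, median scaling, no expression limit and the block. Depth limits the values of genes with few reads, such as EPGN, EGF, ERBB4, ERBB3 and BTC.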

Other observations

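Within each group the samples differed in a way that several genes of the family shared. The share of all tested genes that were highest in each sample was not computed. The counts below therefore cannot tell a trait of the family from one of the whole library. In shRNA-NC, replicate 2 was the highest for 6 of the 7 ligand genes (AREG, EREG, HBEGF, TGFA, BTC and NRG1), and ADAM8, a metalloproteinase of the shedding list, was at 1.74 RPKM there against 0.336 and 0.247 RPKM in replicates 1 and 3. In shRNA-UBC9, replicate 1 was the highest for AREG, EREG, TGFA and NRG1, for EGFR and ERBB3, and for 10 of the 12 tested early response genes. Among the controls these 12 genes were highest in replicate 1 for 7, in replicate 2 for 3 and in replicate 3 for 2. ADAM8 and ERRFI1 were highest in that library too, at 7.90 RPKM against 1.25 and 1.59, and at 226 RPKM against 52.1 and 49.2. HBEGF, BTC and EPGN were not. The log2 fold change of ADAM8 was 2.01 with overlapping groups (adjusted p = 0.0753 from limma), and it was 2.76 (adjusted p = 0.0252) without shRNA-NC replicate 2, 1.55 (adjusted p = 0.214) without shRNA-NC replicate 3 and 1.21 (adjusted p = 0.177) without shRNA-UBC9 replicate 1. These samples were singled out after their values were seen, and the cause of their difference was not tested.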
